A study of Mus musculus with 16 samples.

Results

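Fatty acids and several amino acids are broken down inside mitochondria, and 38 mouse genes of these routes are described here in striatal astrocytes. They were chosen by symbol, as enzymes of fatty acid beta-oxidation, of electron transfer from it, and of branched-chain amino acid, propionate, lysine, proline and glycine breakdown. All 38 were among the 13277 genes of the deposited tables. The data came from whole striata of 8 adult mice, in which an inducible Cre recombinase (Cre/ERT2) was driven by the promoter of the astrocyte gene Aldh1l1 and a RiboTag allele put a haemagglutinin tag on ribosomes of cells with Cre activity. The RiboTag line had a B6 background, and the Aldh1l1-Cre/ERT2 line had been backcrossed from FVB to C57BL/6N. Of these mice, 4 (Y481, Y482, Y483 and Y485) had received an adeno-associated virus for a control protein, and 4 (Y486, Y487, Y489 and Y490) a virus for hPMCA2w/b, a human plasma membrane calcium pump that lowers calcium signals in astrocytes. Each mouse gave an input library, from cleared tissue lysate, and an IP library, from RNA that came down with the tagged ribosomes. The 16 libraries therefore form 4 groups of 4, called control input, control IP, PMCA input and PMCA IP, and all 8 mice carried both alleles and received a virus. The study asked what lowering astrocyte calcium signals does to striatal circuits, and the comparisons here are IP against input within each treatment, and PMCA against control within each fraction.

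In beta-oxidation, fatty acids are activated to acyl-CoA, carried into the mitochondrion on carnitine, and shortened in repeated rounds of dehydrogenation, hydration, dehydrogenation and thiolysis. The acyl-CoA dehydrogenases, including those of the branched-chain amino acids, pass their electrons to the electron transfer flavoprotein and on to ubiquinone. Valine, isoleucine and odd-chain fatty acids end in propionyl-CoA, which is turned into succinyl-CoA, while glycine is split by a complex of its own that is known in the brain mainly from astrocytes.

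Upstream sequences are shown for 4 of the genes as examples: Hadhb, whose start site lies beside that of its partner Hadha, and Aass, Amt and Cpt1a. Each run gives the 250 bases before an annotated start site, 5′ to 3′ on the strand of the gene, from RefSeq on GRCm38.p6. Capitals mark the nuclear receptor core motif AGGTCA, which in the runs of Aass, Amt and Cpt1a stands on the other strand and so reads TGACCT. The positions are chr5:30155003-30155252 on the plus strand for Hadhb, chr6:23132987-23133236 on the minus strand for Aass, chr9:108296655-108296904 on the plus strand for Amt and chr19:3323051-3323300 on the plus strand for Cpt1a. The Cpt1a run lies within the gene as annotated (3322326 to 3385735), so the start site used is not its outermost one.
Hadhb: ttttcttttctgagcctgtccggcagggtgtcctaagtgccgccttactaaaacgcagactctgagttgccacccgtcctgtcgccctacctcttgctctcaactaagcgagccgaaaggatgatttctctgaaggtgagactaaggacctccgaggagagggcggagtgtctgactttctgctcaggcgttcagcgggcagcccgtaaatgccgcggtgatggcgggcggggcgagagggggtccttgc
Aass: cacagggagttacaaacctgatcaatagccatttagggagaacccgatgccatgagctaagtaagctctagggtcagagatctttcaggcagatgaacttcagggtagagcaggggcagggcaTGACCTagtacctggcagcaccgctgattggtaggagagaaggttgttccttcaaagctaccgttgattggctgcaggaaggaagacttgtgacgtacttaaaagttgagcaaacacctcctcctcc
Amt: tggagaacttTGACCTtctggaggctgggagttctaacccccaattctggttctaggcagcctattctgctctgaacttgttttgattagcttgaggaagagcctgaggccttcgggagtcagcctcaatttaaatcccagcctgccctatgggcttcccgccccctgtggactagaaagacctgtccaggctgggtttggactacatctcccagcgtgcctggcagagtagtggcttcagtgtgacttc
Cpt1a: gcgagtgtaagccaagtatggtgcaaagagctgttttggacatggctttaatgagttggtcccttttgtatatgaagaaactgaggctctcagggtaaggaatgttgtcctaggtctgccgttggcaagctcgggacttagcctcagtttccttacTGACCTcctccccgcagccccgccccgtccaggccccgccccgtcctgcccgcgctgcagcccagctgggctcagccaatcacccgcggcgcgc

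Hadha and Hadhb code for the 2 subunits of the mitochondrial trifunctional protein and are read in opposite directions from start sites 273 bases apart on chromosome 5. Their promoter windows, taken as 250 bases before and 50 after the start, overlap by 228 bases, so most of the Hadhb run above is also upstream sequence of Hadha. The Hadhb run holds no AGGTCA on either strand. In Aass the motif begins 127 bases before the start, in Amt 240 and in Cpt1a 94. Promoter windows were matched for 33 members (36 windows). AGGTCA, on either strand, was in 11 of the 36 windows (30.6%), beside 16.3% of 32851 windows of the same length in the table. Besides Aass, Amt and Cpt1a, the windows were of Acadm, Acadvl, Aldh6a1, Bckdhb, Echs1, Hibadh and Pcca. The windows of Acads, Acsf2, Cpt2, Gldc and Prodh held none. A link between the motif and the levels below was not tested. The longer motif TCAAGGTCA, which contains AGGTCA, was in 0 of the 36 and in 0.423% of all windows, and the direct repeat of AGGTCA with 1 base between was in 0 of the 36 and in 0.0396% of all. The member windows were also richer in G and C (median 60.3% beside 52.7%) and in CpG (median 17 beside 7 per window). These matches describe letters in a window and no binding was measured.

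Depth was low. Over the listed genes, input libraries held 198462 to 419458 reads and IP libraries 347274 to 686343, so that 1 read was worth 1.59 to 4.46 CPM, reads scaled to the effective library size. Values are log2 CPM as deposited, where a library with 0 reads reads -0.66. The 10 astrocyte markers made up 7.04% to 8.40% of reads in IP libraries and 0.453% to 0.671% in input libraries, and all 10 were higher in IP in both treatments. The 7 listed markers of striatal projection neurons made up 0.0689% to 0.0740% of IP reads and 0.813% to 1.13% of input reads. The virus carries a human gene and the tables list mouse genes, so its expression was not checked here. The leading principal component (64.5% of the variance) separated all IP from all input libraries. On the next (5.9%) the input library of Y481, the shallowest, stood apart at -77.9, beside 16 to 23.3 in the other control input and -17.1 to 16.2 in PMCA input libraries. Without Y481, 34 of 37 members were called higher in control IP in place of 35, with a median of 2.75 in place of 2.53.

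The genes of mitochondrial fatty acid and amino acid breakdown were far more abundant in RNA of astrocyte ribosomes than in RNA of whole striatum. In control mice 35 members were higher in IP and 0 were lower, and in PMCA mice 35 were higher and 0 were lower. Of all genes tested, 27.3% were called higher and 26.1% lower in control mice, and 24.9% higher and 24.8% lower in PMCA mice (limma, adjusted p under 0.05 over 8089 genes). The median member was higher in IP by 2.53 on the log2 scale in control mice and 2.52 in PMCA mice, beside 0.06 and 0.02 over all genes tested. In 33 of the 38 genes every control IP library lay above every control input library, which held for 25% of all genes tested. The same was true of 36 of 38 in PMCA mice, beside 23.8%. In bulk samples such as these, fewer cells of a type and less RNA per cell cannot be told apart.

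The filter on low values bears on these counts. It left 37 members in the model and dropped Bckdhb, and 27 of the 37 would not have passed on their input libraries alone, so those genes entered through the fraction in which they are abundant. Without any filter, 34 of the 38 members were called higher in control IP (19.8% of all genes) and 33 of 38 in PMCA IP (17% of all genes). In those fits Acadvl, Etfb, Pcca and Bckdhb were not called in control mice, and Hadh, Amt, Mccc2, Pcca and Bckdhb were not called in PMCA mice. With the filter, 34 of the 37 genes were called higher in both treatments.

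**Figure D1:**
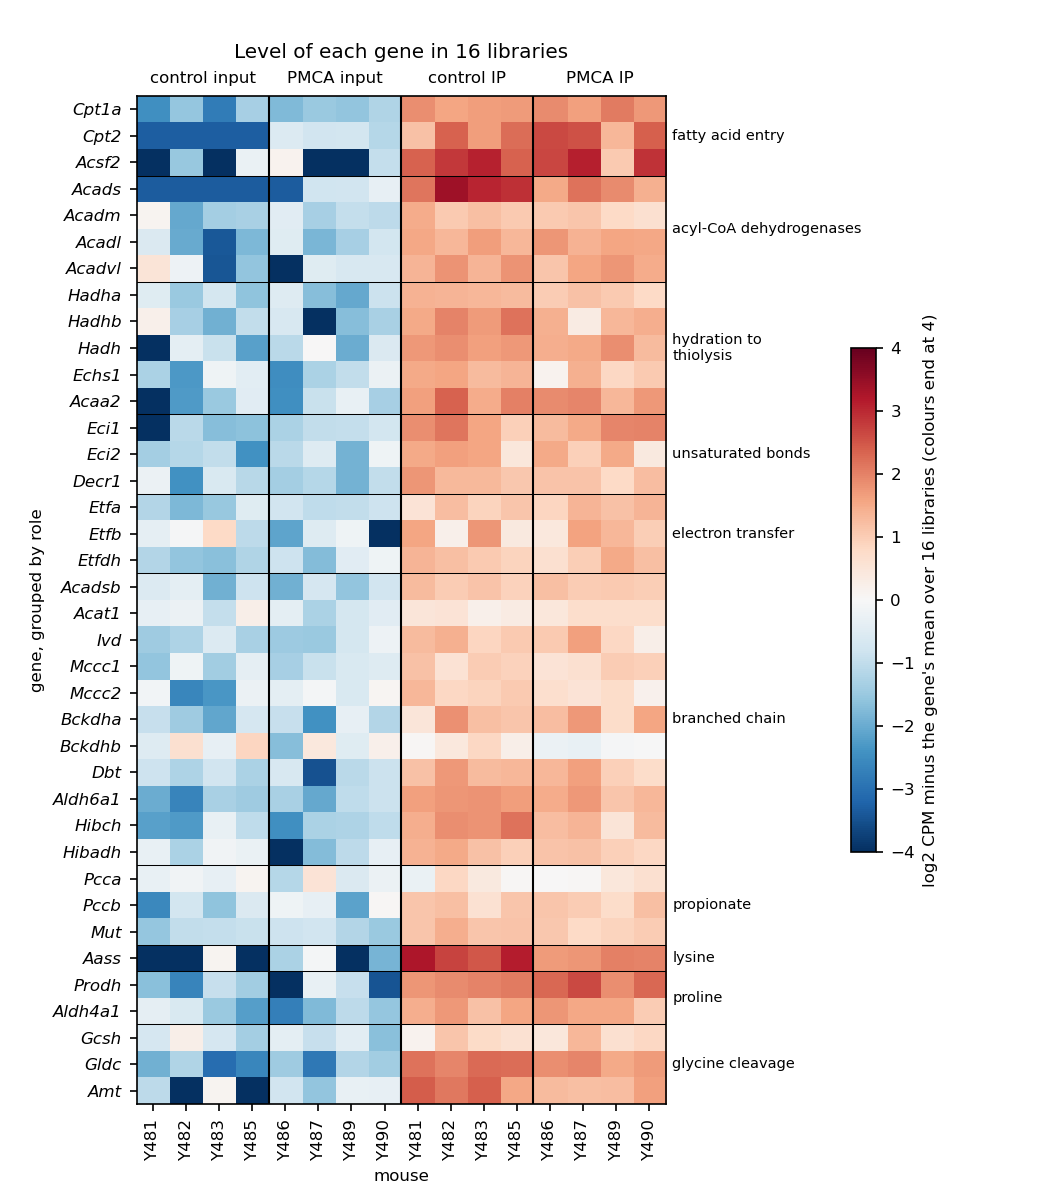
Level of the 38 genes (rows, grouped by role) in the 16 libraries (columns, grouped by treatment and fraction), as log2 CPM minus the mean of that gene over all libraries. IP libraries are red and input libraries blue in nearly all rows, with Bckdhb and Pcca close to white in both fractions.

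Together the 38 genes took 0.104%, 0.0843%, 0.0828% and 0.0941% of reads in the control input libraries of Y481, Y482, Y483 and Y485. In control IP libraries of the same mice, in the same order, their share was 0.451%, 0.474%, 0.429% and 0.435%. PMCA input libraries of Y486, Y487, Y489 and Y490 gave 0.0875%, 0.0886%, 0.0926% and 0.117%, and their IP libraries 0.400%, 0.424%, 0.395% and 0.369%. The share was thus 0.0914% ± 0.00997 in control input and 0.0963% ± 0.0137 in PMCA input, against 0.447% ± 0.0199 in control IP and 0.397% ± 0.0225 in PMCA IP (SD, n = 4 each). No IP library came near any input library. Between the treatments, input shares overlapped, and the 4 PMCA IP shares lay below the 4 control IP shares by a narrow margin: the highest PMCA library (Y487, 95% Wilson interval 0.406% to 0.442%) and the lowest control library (Y483, 0.412% to 0.447%) differed by less than their counting error. Such intervals cover counting error only, since reads without molecular identifiers are not independent molecules.

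**Figure D2:**
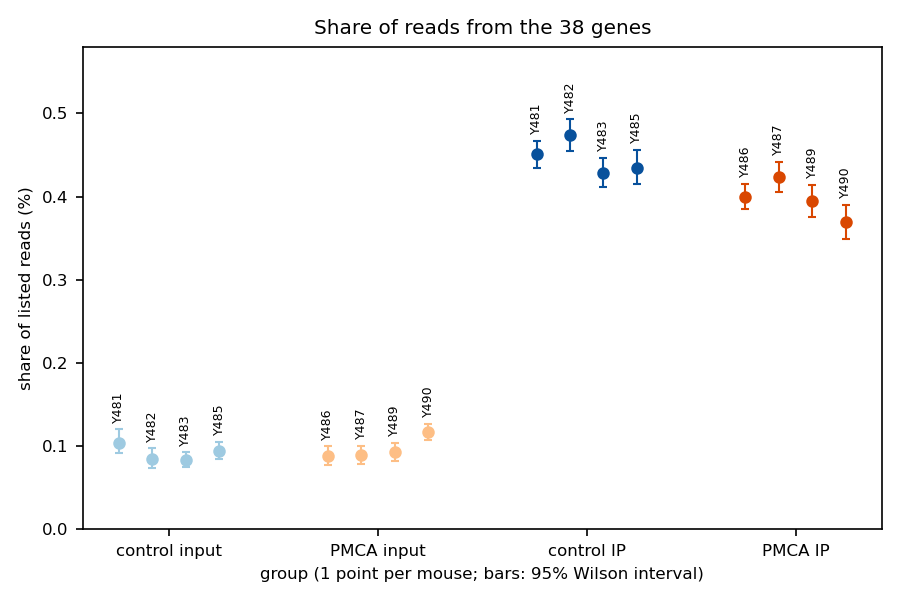
Share of all listed reads that came from the 38 genes (y axis, percent) in each library, with 95% Wilson intervals, by group on the x axis. IP libraries lie at 0.369% to 0.474% and input libraries at 0.0828% to 0.117%.

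Within each mouse the picture was the same, with input and IP libraries paired as labelled. The deviations of Y490 IP from its group did not follow those of its own input (r = -0.136, and 0.21 with the input of another PMCA mouse). The median of the 37 tested members, as IP minus input log2 CPM, was 2.62, 3.09, 2.56 and 2.59 in the control mice, in the order Y481, Y482, Y483 then Y485, and 2.52, 2.68, 2.13 and 2.18 in PMCA mice Y486, Y487, Y489 and Y490. In 6 of the 8 mice all 37 genes were above 0, and in Y485 and Y487 Pcca alone of the 37 was below it, at -0.07 and -0.49. Bckdhb, the member left out by the filter, was above 0 in only 4 of the 8 mice. It was at -0.22, -0.63, -0.73 and -0.22 in Y482, Y485, Y487 and Y490. Astrocyte markers had medians of 3.62 to 3.97 in these mice. The nuclear genes of the respiratory chain, 68 of them tested and also mitochondrial, had medians of -0.15 to 0.84. In the model, 17 of the 68 were called higher and 3 lower in control IP, with a median of 0.47, and 15 higher and 4 lower in PMCA IP, with a median of 0.21. Breakdown genes and respiratory chain genes were not tested against each other.

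**Figure D3:**
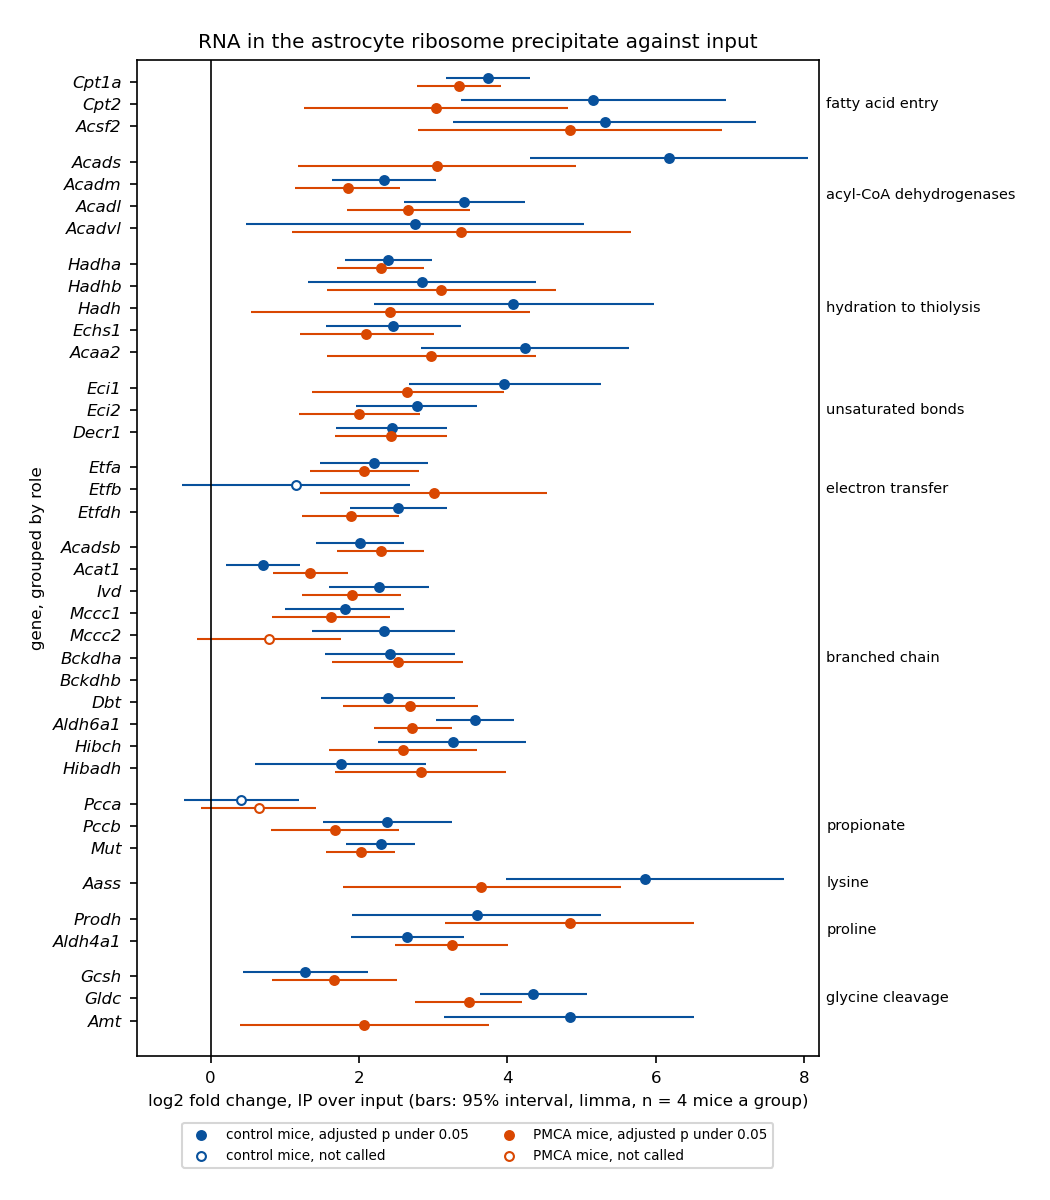
Log2 fold change of IP over input (x axis) for each tested gene (y axis, grouped by role), in control mice (blue) and PMCA mice (orange), with 95% intervals from limma. Filled points passed an adjusted p under 0.05, and the open points are Etfb and Pcca in control mice and Mccc2 and Pcca in PMCA mice, while Bckdhb has no point because it was not tested.

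The member genes of fatty acid entry were all called higher in IP, 3 of 3 in each treatment. Related carnitine and activation genes that are not members were mixed. Of 8 tested, 3 were called higher and 2 lower in control IP, and 4 higher and 2 lower in PMCA IP. Cpt1a makes the outer-membrane carnitine palmitoyltransferase that controls entry of long-chain fatty acids (chromosome 19, 3322326 to 3385735). Its level was 3.81, 4.69, 3.45 and 4.93 log2 CPM in control input (Y481, Y482, Y483 and Y485, the order kept below) and 8.10, 7.84, 7.93 and 7.96 in control IP. In PMCA mice it was 4.48, 4.78, 4.66 and 5.05 in input (Y486, Y487, Y489 and Y490, likewise kept below) and 8.13, 7.90, 8.33 and 8.00 in IP. All 8 IP libraries were above all 8 input libraries. Cpt1a was 13.3-fold higher in control IP (log2 fold change 3.74, SE 0.28, adjusted p = 7.79e-12) and 10.2-fold higher in PMCA IP (3.35, SE 0.28, adjusted p = 8.40e-11).

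Cpt2, the inner-membrane partner of Cpt1a, had 0 reads in all 4 control input libraries and 4 reads over the 4 PMCA input libraries. Its IP level was 3.82, 5.0, 4.32 and 4.86 in control mice and 5.28, 5.19, 3.97 and 5.04 in PMCA mice. With 42 control IP reads it was at least 9.03-fold higher than a floor of 3 reads over the control input group. In PMCA mice 57 IP reads against 4 input reads gave a ratio of 11.0 (95% counting interval 4.07 to 41.8). Acsf2 codes for an acyl-CoA synthetase of mitochondria. It read -0.66, 2.27, -0.66 and 3.52 in control input and 6.12, 6.60, 6.84 and 6.14 in control IP, and 3.91, -0.66, -0.66 and 2.83 in PMCA input and 6.44, 6.89, 4.82 and 6.65 in PMCA IP. Its input rested on 5 and 7 reads, and the read ratios were 21.2 (8.89 to 66.0) in control mice and 16.8 (7.95 to 42.5) in PMCA mice.

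All 4 acyl-CoA dehydrogenases of straight-chain fatty acids, which open each round of oxidation and differ in preferred chain length, were called higher in IP in both treatments. Acads, for short chains (chromosome 5, 115110299 to 115119346), had 0 reads in the 4 control input libraries and 0, 1, 1 and 2 in the PMCA input libraries, 4 in all. Its IP level was 4.79, 6.03, 5.71 and 5.56 in control mice and 4.18, 4.81, 4.54 and 4.07 in PMCA mice. Every IP library was above every input library. In control mice 87 IP reads made Acads at least 18.7-fold higher than the floor of 3 input reads over the group, and in PMCA mice 38 reads against 4 gave a ratio of 7.34 (2.64 to 28.3). The call in PMCA mice (3.05, SE 0.91, adjusted p = 0.00679) was lost without Y486 (2.45, adjusted p = 0.053), and the size was 1.78 with a prior count of 2 reads.

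Acadvl, for very long chains, read 5.63, 4.91, 1.68 and 3.52 in control input and 6.47, 6.90, 6.48 and 6.90 in control IP. In PMCA mice it read -0.66, 4.62, 4.47 and 4.47 in input and 6.21, 6.70, 6.89 and 6.61 in IP. The input libraries were spread widely, with 0 reads in Y486, while the IP libraries were tight. Acadvl was called in control mice (2.75, SE 1.06, adjusted p = 0.042) and in PMCA mice (3.37, SE 1.06, adjusted p = 0.0168), and the control call was lost without Y482, Y483, Y485, Y487, Y489 or Y490 (adjusted p 0.0513 to 0.163) and under total reads scaling (0.0675). The control size was 3.39 without Y481 and 2.07 without Y483. The PMCA size was 2.21 without Y486 and 2.50 with a prior count of 2 reads. Acadl, for long chains, was higher by 3.42 and 2.66, and Acadm, for medium chains, by 2.34 and 1.85 on the log2 scale in control and PMCA mice.

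The enzymes from hydration to thiolysis were called higher in 5 of 5 genes in each treatment. Hadha read 6.41, 5.41, 6.19 and 5.27 in control input and 8.27, 8.23, 8.21 and 8.14 in control IP, and 6.38, 5.19, 4.82 and 6.03 in PMCA input and 7.90, 8.04, 7.93 and 7.69 in PMCA IP. Hadhb read 3.81, 2.27, 1.68 and 2.60 in control input and 5.10, 5.57, 5.30 and 5.78 in control IP, and 2.97, -0.66, 1.89 and 2.31 in PMCA input and 5.02, 3.94, 4.94 and 5.04 in PMCA IP. For each subunit the fractions did not overlap in either treatment. Hadha was higher in IP by 2.39 (SE 0.28) and 2.29 (SE 0.28), and Hadhb by 2.85 (SE 0.75) and 3.11 (SE 0.75), in control and PMCA mice. The input of Hadhb rested on 7 and 5 reads, with read ratios of 7.37 (3.42 to 18.9) and 7.58 (3.03 to 24.4), and a prior count of 2 reads gave 2.15 and 1.91.

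Hadh, the dehydrogenase of short and medium chains, read -0.66, 4.91, 4.41 and 3.13 in control input, 7.03, 7.15, 6.92 and 7.02 in control IP, 4.22, 5.30, 3.30 and 4.73 in PMCA input, and 6.74, 6.81, 7.14 and 6.56 in PMCA IP. The 4 control IP libraries were within a narrow band and far above an input that ranged from 0 reads upward. It was higher by 4.08 (SE 0.88, adjusted p = 0.00113) in control mice and 2.42 (SE 0.88, adjusted p = 0.0329) in PMCA mice, the latter lost without Y485, Y486, Y487, Y489 or Y490 (adjusted p 0.053 to 0.154) and under total reads scaling (0.0577). The control size was 2.88 without Y481, the library with 0 reads, 4.70 without Y482 and 3.12 with a prior count of 2 reads, and 246 IP against 18 input reads gave a ratio of 8.82 (5.46 to 15.1). Acaa2, the thiolase, read -0.66, 2.27, 3.07 and 4.08 in control input, 6.19, 6.92, 6.03 and 6.55 in control IP, 2.08, 3.65, 4.25 and 3.21 in PMCA input, and 6.44, 6.51, 5.87 and 6.29 in PMCA IP. Its IP libraries stayed above its input libraries throughout (4.24, SE 0.68, and 2.97, SE 0.68). The control size was 3.36 without Y481, whose input had 0 reads, and 3.09 with a prior count of 2 reads, and the read ratio was 10.5 (5.57 to 22.3). The hydratase Echs1 was higher by 2.46 and 2.10.

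Auxiliary enzymes that deal with unsaturated bonds, Eci1, Eci2 and Decr1, were called higher in IP in 3 of 3 genes in each treatment. Eci1 read -0.66, 3.17, 2.53 and 2.60 in control input, 6.09, 6.38, 5.82 and 5.20 in control IP, 2.97, 3.26, 3.30 and 3.52 in PMCA input and 5.50, 5.74, 6.20 and 6.22 in PMCA IP, with no overlap of fractions. It was higher by 3.96 (SE 0.63) and 2.65 (SE 0.63). With 6 control input reads its read ratio in control mice was 12.6 (5.61 to 35.0), and the control size was 3.04 without Y481 and 2.78 with a prior count of 2 reads. Eci2 was higher by 2.78 and 2.0, and Decr1 by 2.44 and 2.43.

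Of the 3 electron transfer genes, 2 were called higher in control IP and 3 in PMCA IP. Etfa, the alpha subunit of the flavoprotein, was higher by 2.20 and 2.07, and Etfdh, its ubiquinone oxidoreductase, by 2.53 and 1.89. Etfb, the beta subunit, had 5.16 ± 0.80 log2 CPM in control IP and 4.01 ± 0.77 in control input (SD, n = 4; difference 1.15, SE 0.75, adjusted p = 0.2). In PMCA mice it was higher by 3.01 (SE 0.75, adjusted p = 0.00153), and by 2.06 without Y490 (adjusted p = 0.0117) or 1.96 with a prior count of 2 reads. Within the mice Y486, Y487, Y489 and Y490 the enrichment was 2.53, 2.14, 1.52 and 5.83, highest in Y490, and 70 IP against 10 input reads gave a ratio of 5.41 (2.77 to 11.8). The difference between the treatments was 1.85 (SE 1.06) and was not called (adjusted p = 0.913 in limma).

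Of the 10 branched-chain genes tested, 10 were called higher in control IP and 9 in PMCA IP. Aldh6a1, the methylmalonate semialdehyde dehydrogenase of valine breakdown (chromosome 12, 84430717 to 84451024), read 5.35, 4.69, 6.03 and 5.91 in control input and 8.99, 9.11, 9.12 and 9.02 in control IP. In PMCA mice it read 6.03, 5.30, 6.33 and 6.48 in input and 8.83, 9.07, 8.46 and 8.68 in IP. It had the smallest adjusted p of all members in control mice, at 11.8-fold (3.56, SE 0.26, adjusted p = 7.27e-12) and 6.61-fold in PMCA mice (2.72, SE 0.26, adjusted p = 1.52e-09). The earlier valine step Hibch was higher by 3.26 and 2.59, and Hibadh by 1.75 and 2.83, with the control call of Hibadh lost without Y482 (adjusted p = 0.0862) and its PMCA size 2.03 without Y486. The isoleucine and short branched-chain dehydrogenase Acadsb was higher by 2.01 and 2.29, and the leucine dehydrogenase Ivd by 2.27 and 1.90.

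The subunits of methylcrotonyl-CoA carboxylase, a leucine enzyme, were called higher except for Mccc2 in PMCA mice (0.78, SE 0.47, adjusted p = 0.172), where it read 4.48, 4.78, 4.25 and 4.95 in input and 5.55, 5.42, 5.59 and 5.04 in IP, still without overlap. In control mice Mccc2 read 4.77, 2.27, 2.53 and 4.64 in input and 6.19, 5.70, 5.77 and 5.91 in IP, a difference of 2.34 (SE 0.47, adjusted p = 1.45e-04). Mccc1 was higher by 1.81 and 1.62. Acat1, the acetoacetyl-CoA thiolase that also serves ketone bodies, rose least among the called genes of control mice, at 0.71 (SE 0.24, adjusted p = 0.0163), and by 1.34 in PMCA mice. Its control libraries overlapped between fractions, and the control call was lost without Y481, Y482 or Y483 (adjusted p 0.0506 to 0.0872) and under total reads scaling (0.50, adjusted p = 0.0884).

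In the branched-chain ketoacid dehydrogenase complex the subunits stood apart from each other. Bckdha, the E1 alpha subunit, was higher in IP by 2.42 (SE 0.43) and 2.52 (SE 0.43), and Dbt, the core E2 subunit, by 2.39 and 2.69 (PMCA mice 1.88 without Y487). Bckdhb, the E1 beta subunit, read 3.26, 4.43, 3.45 and 4.64 in control input and 3.82, 4.21, 4.61 and 4.01 in control IP, and 2.08, 4.21, 3.30 and 3.98 in PMCA input and 3.56, 3.48, 3.72 and 3.76 in PMCA IP. Its fractions overlapped in both treatments (4.16 ± 0.34 against 3.95 ± 0.69, and 3.63 ± 0.13 against 3.39 ± 0.96, IP against input, SD, n = 4). In each of the 8 mice Bckdha was more enriched than Bckdhb, by 0.62 to 4.87 with a median of 2.25 on the log2 scale. Bckdhb had too few reads to enter the main model.

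Propionyl-CoA carboxylase showed a like split. Pcca, the biotin-carrying alpha subunit (chromosome 14, 122484365 to 122889944), read 4.77, 4.91, 4.72 and 5.16 in control input and 4.79, 5.88, 5.45 and 5.10 in control IP, and 3.91, 5.60, 4.47 and 4.84 in PMCA input and 5.09, 5.10, 5.52 and 5.71 in PMCA IP. The fractions overlapped in both treatments, and Pcca was called in neither (0.41, SE 0.38, adjusted p = 0.375, and 0.65, SE 0.38, adjusted p = 0.159). Pccb, the beta subunit, was higher by 2.38 (SE 0.42) and 1.68 (SE 0.42). Pccb was more enriched than Pcca in 8 of 8 mice, by 0.11 to 3.68. Further pairs of partners or neighbouring steps were compared in this way, and most went both ways. Hadha was more enriched than Hadhb in 2 mice and less in 6. Etfa was more enriched than Etfb in 5 mice and less in 3, and Bckdha than Dbt in 4 and less in 4. Mut (current symbol Mmut), the methylmalonyl-CoA mutase that ends the propionate route, was higher by 2.29 (SE 0.22) and 2.02 (SE 0.22).

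Lysine breakdown is represented by Aass, the bifunctional enzyme of its opening steps (chromosome 6, 23072173 to 23132986). It had 0, 0, 4 and 0 reads in the control input libraries and 1, 3, 0 and 1 in PMCA input, 5 in all. Its IP level was 6.57, 6.03, 5.82 and 6.47 in control mice and 5.02, 5.10, 5.35 and 5.30 in PMCA mice. IP was above input everywhere, with 145 reads against 4 in control mice (ratio 23.4, 8.94 to 87.0) and 64 against 5 in PMCA mice (ratio 9.89, 4.03 to 31.5).

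Both proline genes were called higher in IP in both treatments. Prodh, the proline dehydrogenase, read 3.26, 2.27, 4.01 and 3.52 in control input, 6.69, 6.81, 6.90 and 6.99 in control IP, -0.66, 4.62, 4.00 and 1.48 in PMCA input and 7.23, 7.56, 6.79 and 7.22 in PMCA IP. PMCA input was the widest of these groups, from 0 reads in Y486. Prodh was higher by 3.59 (SE 0.79) and 4.84 (SE 0.79). The PMCA size was 3.82 without Y486, 5.47 without Y487, 5.52 without Y489 and 3.64 with a prior count of 2 reads, and 273 IP against 14 input reads gave a ratio of 15.1 (8.83 to 27.9). Aldh4a1, which takes the next step to glutamate, read 5.35, 5.10, 4.22 and 3.52 in control input, 7.17, 7.45, 6.90 and 7.28 in control IP, 2.97, 3.96, 4.66 and 4.16 in PMCA input and 7.48, 7.25, 7.26 and 6.74 in PMCA IP. Fractions did not overlap, at 2.65 (SE 0.37) and 3.25 (SE 0.37).

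The glycine cleavage system was called higher in 3 of 3 genes in each treatment, with unequal sizes. Gldc, the glycine decarboxylase (chromosome 19, 30098441 to 30175441), read 4.21, 4.91, 3.07 and 3.52 in control input and 8.3, 8.07, 8.38 and 8.35 in control IP, and 4.69, 3.26, 4.97 and 4.73 in PMCA input and 8.00, 8.08, 7.65 and 7.84 in PMCA IP. It was 20.4-fold higher in control IP (4.35, SE 0.35, adjusted p = 5.13e-11) and 11.2-fold in PMCA IP (3.48, SE 0.35, adjusted p = 4.16e-09). Amt, the aminomethyltransferase, read 3.26, -0.66, 4.41 and -0.66 in control input, 6.72, 6.42, 6.70 and 5.85 in control IP, 3.52, 2.72, 4.00 and 3.98 in PMCA input and 5.55, 5.49, 5.52 and 5.95 in PMCA IP. It was higher by 4.84 (SE 0.81) and by 2.07 (SE 0.81, adjusted p = 0.038). The control size rests on 10 input reads, none of them in Y482 or Y485. It was 4.09 without Y482, 5.68 without Y483 and 3.20 with a prior count of 2 reads, and 170 IP reads against the 10 gave a read ratio of 11.0 (5.82 to 23.3). The PMCA call was lost without any 1 of the 4 PMCA mice (adjusted p 0.0729 to 0.141) and under total reads scaling (0.0747). Gcsh, the lipoyl carrier protein, was higher by 1.27 and 1.66, with the control call lost without Y485 (adjusted p = 0.0643). Gldc was more enriched than Gcsh in 8 of 8 mice, by 0.62 to 3.89.

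**Figure D4:**
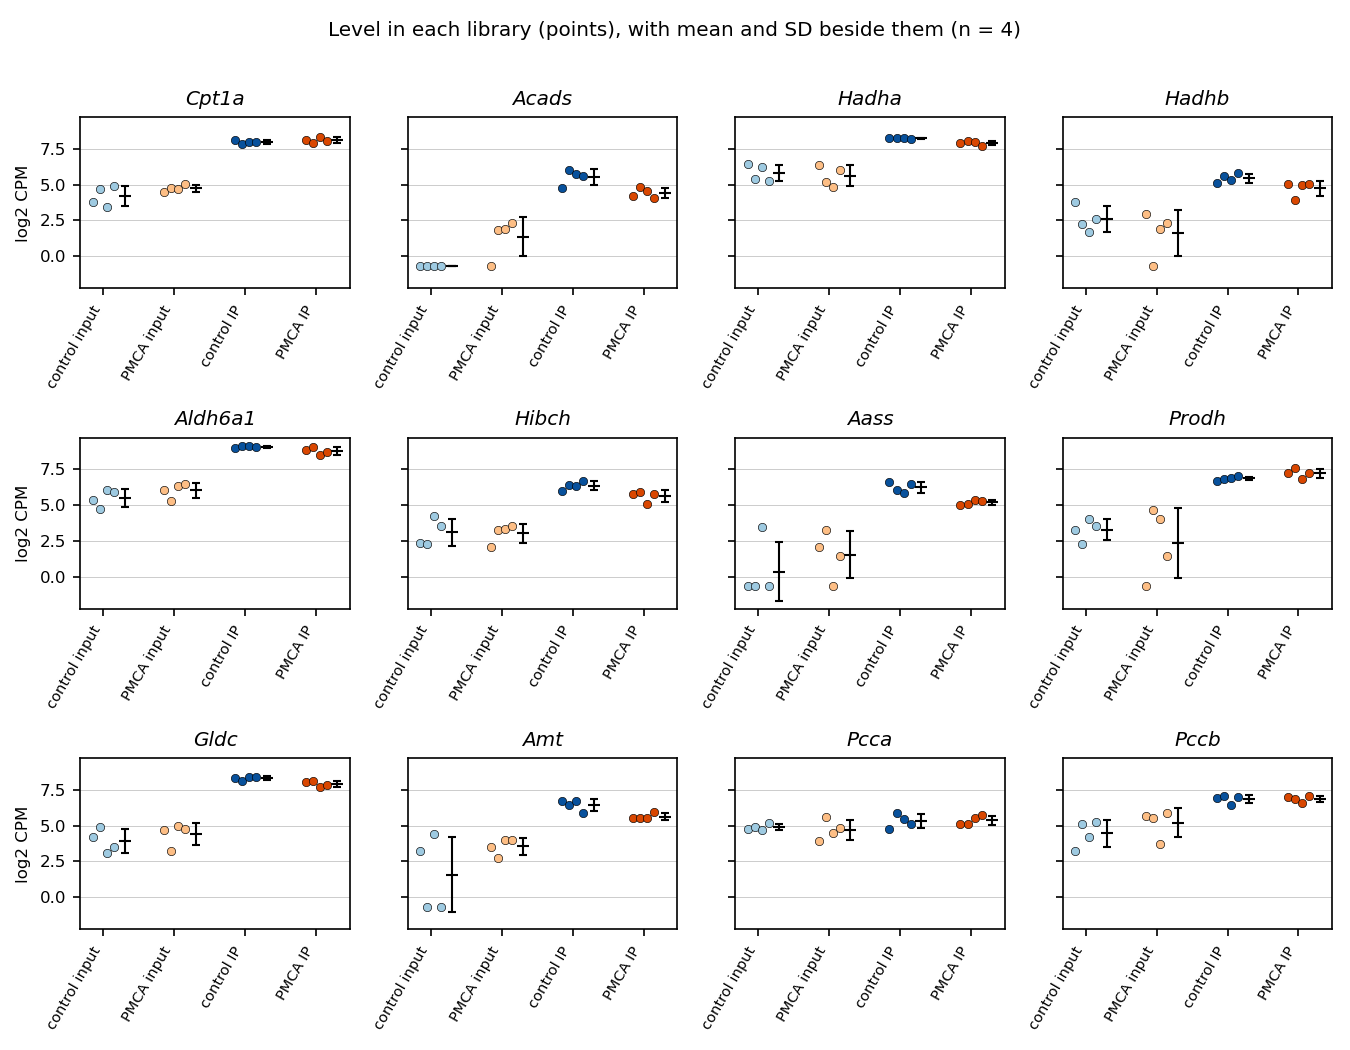
Log2 CPM (y axis) of 12 genes in each library (points, 1 per mouse), with mean and SD (n = 4), by group on the x axis. IP points lie above input points in 11 of the panels in both treatments, and those of Pcca overlap.

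Over the 37 tested genes, the sizes of enrichment in control and PMCA mice went together with Pearson r = 0.62 and Spearman rho = 0.66, as a description across genes that share libraries, depth and the model. Among the 31 genes with 10 or more reads in every group they were 0.54 and 0.56. Genes of related routes that are not members were also mostly higher in IP, with some lower. Of a list of 61 carnitine, ketone body, peroxisomal, other amino acid and regulatory genes, 54 were in the tables and 41 were tested. In control mice 23 were called higher in IP and 3 lower, beside 27.3% and 26.1% of all genes. In PMCA mice 25 were called higher and 3 lower, beside 24.9% and 24.8%. Their median was 1.23 in control and 1.22 in PMCA mice, beside 0.06 and 0.02 over all genes. The nuclear receptor Ppara, an activator of fatty acid oxidation genes, was higher by 4.92 (SE 0.73) and 3.71 (SE 0.73). The sarcosine dehydrogenase Sardh was higher by 4.50 (SE 0.93) and 3.99 (SE 0.93), the acyl-CoA dehydrogenase Acad11 by 3.86 in control mice and the acyl-CoA synthetase Acsl6 by 3.28 in PMCA mice. Those that fell in IP were the cytosolic branched-chain aminotransferase Bcat1 (-3.78 and -3.80) and the acyl-CoA synthetases Acsl1 (-1.79 and -1.63) and Acsl4 (-0.76 and -1.31).

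With hPMCA2w/b, no member passed the test in either fraction. In IP, limma called 0 of 37 at an adjusted p under 0.05, beside 0.508% of all genes tested, and 0 with voom weights. At an unadjusted p under 0.05 there were 8, and the share of all genes at that cut was not counted. No excess among members can therefore be read from the 8. The fold changes were below 0 in 25 genes and above 0 in 12, and their median was -0.20 beside -0.01 over all genes, and -0.09 without Y490. In 7 of the 38 genes every PMCA IP library lay below every control IP library: Hadha, Hadhb, Mccc2, Mut, Aass, Hibch and Bckdhb, of which all but Bckdhb were tested. That is 16.2% of the tested members, beside 3.74% of all genes tested. None lay wholly above, beside 3.13% of all genes. The highest PMCA and lowest control libraries read 7.61 and 7.62 in Mut, 3.76 and 3.82 in Bckdhb, and 5.04 and 5.10 in Hadhb. They read 5.90 and 5.98 in Hibch, 8.04 and 8.14 in Hadha, 5.59 and 5.70 in Mccc2, and 5.35 and 5.82 in Aass. Counting error was not weighed in these separations. The 7 members were singled out after their values were seen.

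Aass had the smallest p, from 6.22 ± 0.35 log2 CPM in control IP to 5.19 ± 0.16 in PMCA IP (SD, n = 4). The 4 PMCA values (5.02 to 5.35) were all below the 4 control values (5.82 to 6.57). The difference was -1.03 (SE 0.28, 95% interval -1.59 to -0.47), which did not pass (limma adjusted p = 0.0799, and 0.0981 to 0.195 when a mouse was left out). Amt differed by -0.80 (SE 0.26, interval -1.32 to -0.27, adjusted p = 0.182) and Acads by -1.13 (SE 0.37, interval -1.87 to -0.38, adjusted p = 0.183), and in both genes the highest PMCA library lay above the lowest control library. Gldc, the partner of Amt, differed by -0.38 (SE 0.15, adjusted p = 0.265).

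Hibch read 5.98, 6.38, 6.33 and 6.70 in control IP and 5.77, 5.90, 5.05 and 5.79 in PMCA IP, without overlap, and differed by -0.72 (SE 0.26, adjusted p = 0.243). The trifunctional protein subunits also had no overlap and were not called. Hadha differed by -0.32 (SE 0.14, adjusted p = 0.339) and Hadhb by -0.70 (SE 0.35, adjusted p = 0.393). For Hadhb the highest PMCA and lowest control libraries were close, at 5.04 and 5.10. Prodh (0.35, SE 0.19, adjusted p = 0.457) and Cpt2 (0.37) had the highest fold changes above 0. Cpt1a, the entry step, had a difference of 0.13 with a 95% interval of -0.16 to 0.43.

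**Figure D5:**
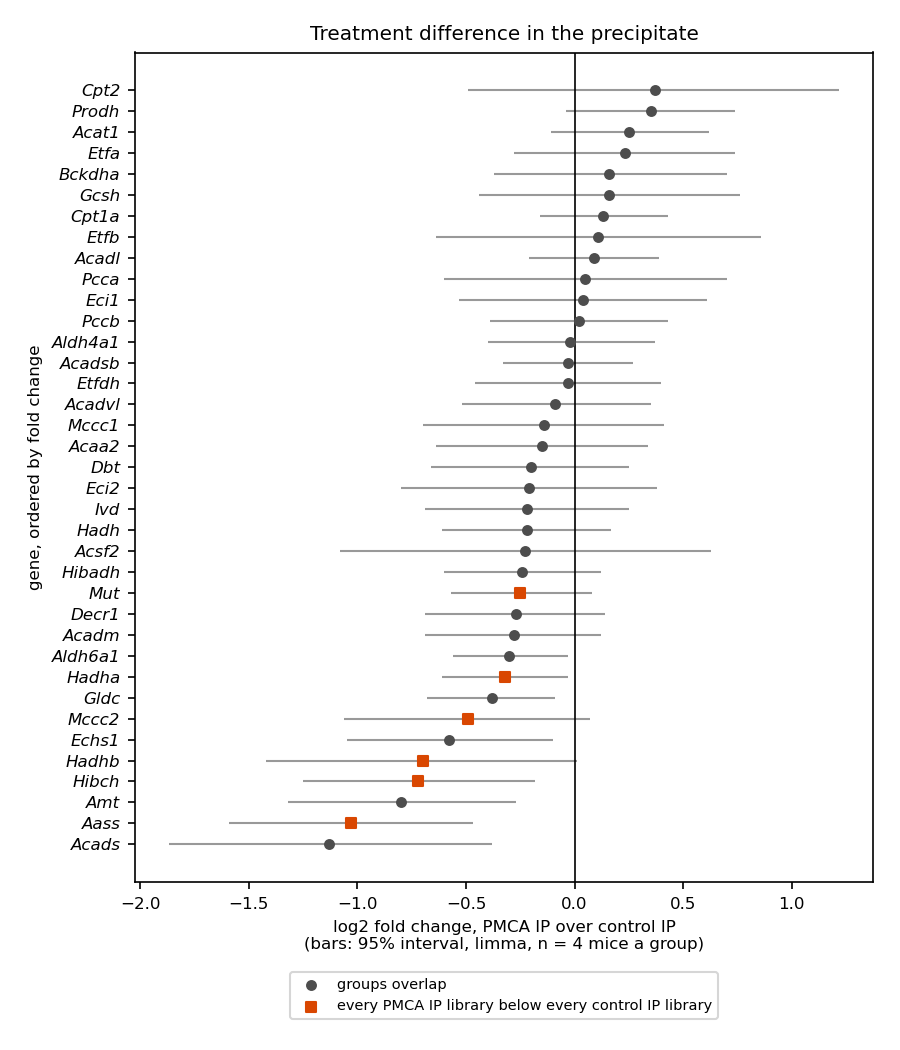
Log2 fold change of PMCA IP over control IP (x axis) for 37 genes (y axis, ordered), with 95% intervals from limma. Squares mark the 6 tested genes in which every PMCA library was below every control library, and no gene passed an adjusted p under 0.05.

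Each PMCA IP library on its own lay slightly low. Against the control IP mean, 25, 22, 24 and 22 of the 37 genes were below 0 in Y486, Y487, Y489 and Y490, with medians of -0.20, -0.07, -0.30 and -0.14. Over all genes 45% to 50% were below 0 in these libraries. The 65 tested respiratory chain genes lay lower too, with medians of -0.31, -0.19, -0.30 and -0.32 in the same libraries, a median of -0.31 in the model and 0 genes called. Other values moved with the treatment in IP. Microglial markers (7 of 7 listed, none at 0 in a group) made up 0.00491% to 0.0130% of control IP reads and 0.0128% to 0.0486% of PMCA IP reads, and 2 of the 4 tested, C1qa and C1qc, were called higher (2.95 and 3.05). The ependymal gene Foxj1 was called higher (1.17, adjusted p = 0.0437), and the neuronal tubulin Tubb3 lower (-1.19, adjusted p = 0.0344). Leaving out a mouse ended 3 of these calls: C1qa without Y482, Y483, Y485, Y489 or Y490 (adjusted p 0.0642 to 0.165), Foxj1 without Y481, Y482, Y483, Y486 or Y490 (0.0812 to 0.199) and Tubb3 without Y481, Y482, Y485, Y489 or Y490 (0.0873 to 0.135). C1qc kept its call in the 4 fits that still tested it. Astrocyte markers made up 7.27% to 7.91% and 7.04% to 8.40%, with 0 of 10 called and 4 at an unadjusted p under 0.05. For these markers too, the share of all genes at that cut was not counted. In 3 of the 10, Gfap (1.14, adjusted p = 0.232), Aldh1l1 (0.43, adjusted p = 0.13) and Atp1b2 (0.37, adjusted p = 0.157), every PMCA IP library lay above every control IP library. The part of these cells in the member values was not tested.

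In input only 8 of the 38 genes had enough reads to be tested. Of these 0 were called, beside 0.0339% of all genes, and 0 with voom weights. At an unadjusted p under 0.05 there was 1, and the share of all genes at that cut was not counted. Hibadh, the hydroxyisobutyrate dehydrogenase of valine breakdown, read 5.87, 4.91, 6.03 and 5.91 in control input and 2.08, 4.43, 5.11 and 5.83 in PMCA input, overlapping groups with the lowest value in Y486 (difference -1.32, SE 0.61, and -0.56 without Y486). Acadl read 5.87, 4.43, 3.07 and 4.64 in control input and 5.95, 4.62, 5.11 and 5.71 in PMCA input (0.84, SE 0.54), and Aldh6a1 differed by 0.54 (SE 0.36). For each of the 3 the adjusted p was 1.0.

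The difference of enrichment between the treatments was tested directly. It was called in 0 of 37 genes, beside 0.0371% of all genes, and in 0 with voom weights. At an unadjusted p under 0.05 there were 4, and the share of all genes at that cut was not counted. The 3 genes with the smallest p were Acads (-3.13, SE 1.29), Amt (-2.76, SE 1.15) and Mccc2 (-1.55, SE 0.67), each with the lower fitted enrichment in PMCA mice and each at an adjusted p of 0.913. Acads had 0 control input reads and Amt 0 in the control input libraries of Y482 and Y485, so these sizes depend on the deposited prior count. The median over members was -0.37, beside -0.03 over all genes, and -0.16 without Y490.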

How the data were processed

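Per the labels, libraries were made with a stranded TruSeq kit after ribosomal RNA depletion and sequenced on a HiSeq instrument. Per the submitters' processing notes, the mm10 build, STAR, HTSeq, edgeR and limma were used. Versions, strand setting and the rule for multiply matching reads were not given in the sources used here. Log2 CPM per gene and library was deposited by the authors, with effective library sizes and a prior count that came to a mean of 0.25 reads. Whole reads were recovered from these values (100% whole within 0.01 reads), and 2 rows that share a name were left out.

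The deposited log2 values were tested in limma 3.58.1 (R 4.3.3), with variance trend and robust moderation. The filter kept a gene whose CPM in 4 or more of the fitted libraries reached that of 10 reads at the median library, and which had 15 or more reads over them. Adjusted p-values are Benjamini-Hochberg over all genes tested, and a gene was called under 0.05. IP against input and the difference of enrichment used all 16 libraries in 1 model, and treatment the 8 libraries of a fraction. A fold change is a difference of group means in log2 CPM. The prior count distorts it for genes with few reads. The fits were also run on simulated counts, with gene means averaged over all 16 libraries apart from a set of changed genes. Genes nearly absent from input but present in IP were not imitated, so that run does not bear on them.

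The labels put both fractions on the same mouse, and a further fit took the mouse as a replicate block. Over 2741 genes, the deviation of an IP library from its group correlated with that of the input library of its mouse at r of 0.0435, 0.00277, 0.0563 and -0.0264 in the control mice (in the order of their numbers), and 0.0332, 0.09, 0.121 and -0.136 in the PMCA mice. In 4 of the 8 mice (Y482, Y485, Y486 and Y490) the input of another mouse of the treatment correlated better, at most 0.21 for Y490, so the pairing rests on the labels. The block left 35 members called in each treatment.

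The members and lists were chosen with earlier results of these data known. Values in every library are given for the 10 called members with the largest fold change in each IP comparison and, where under 3 were called, the 3 with the smallest p in the others, and 3 related genes per direction are named. Other genes are named from counts. Coordinates and upstream sequences are RefSeq, GRCm38.p6. No start site was matched for Decr1, Acaa2, Acat1, Dbt and Mut, which are named only.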

Additional observations from a re-analysis of the deposited data

Results flagged for a closer look

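Among 152 groups of 4 libraries (38 genes in 4 groups), 15 held a library whose gap to its nearest neighbour took up most of the range of the group, 8 in input and 7 in IP. The cut flags about 1 group in 20 by chance when values are normally distributed. Its rate for values that rest on a few whole reads was not worked out. No explanation was weighed for any of them.

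Most of the input values rest on few reads. Acads in Y486 input read -0.66 log2 CPM (0 reads, others 1 to 2), Acadvl in Y486 input -0.66 (0 reads, others 7 to 10), and Eci1 in Y481 input -0.66 (0 reads, others 2). Aass in Y483 input read 3.45 (4 reads) while the other 3 control input libraries had 0. Dbt in Y487 input read 1.86 (1 read, others 6 to 10), Gldc in Y487 input 3.26 (3 reads, others 7 to 12), Mut in Y481 input 4.99 (7 reads, others 11 to 18) and Hibadh in Y482 input 4.91 (7 reads, others 13 to 25).

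In IP, Eci2 in Y485 read 6.03 (25 reads) while the other control IP libraries read 7.08 to 7.21 (65 to 80 reads). Hadhb in Y487 read 3.94 (others 4.94 to 5.04), Hibch in Y489 5.05 (others 5.77 to 5.90) and Acat1 in Y486 7.03 (others 7.27 to 7.29). Pccb in Y483 read 6.44 (others 6.95 to 7.03), Mut in Y482 7.97 (others 7.62 to 7.66) and Amt in Y490 5.95 (others 5.49 to 5.55). The Amt value of Y490 is the PMCA library that reaches into the control range, and the Mut value of Y482 is the highest of the control IP libraries.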

How the results depend on the processing

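The counts of members called held within 1.5 times under every alternative fitted: other scalings, a prior count of 2 reads, no filter, a filter of 30 reads, voom weights, no robust moderation, the libraries of a treatment alone, a mouse left out, and the mouse as a replicate block, which left 35 called in each treatment. They ranged from 32 to 35 with a mouse left out, and a filter of 30 reads left 24 tested, all called. Of 613 values of single members in control mice and 611 in PMCA mice, 14 each lost the call and 0 reversed (Acadvl, Acat1, Hibadh and Gcsh in control mice, and Hadh, Amt and Acads in PMCA mice), and the cause was not tested. Scaling to total reads moved the median of all genes in IP against input to -0.17 and -0.26, with member medians of 2.29 and 2.21, and ended the calls of Acadvl and Acat1 in control mice and of Hadh and Amt in PMCA mice. A prior count of 2 reads ended no member's call but lowered the sizes of genes with few input reads. No member was called for treatment under any alternative fitted, while the count over all genes in IP moved between 14 and 50 around 36 and that in input between 0 and 10 around 2. Over all genes, 2210 were called higher in control IP and 1445 with the filter of 30 reads, which tests fewer genes. A filter of 30 reads left no member to test in input, so it gave no value there. Depth limits input values: 6 members in control mice and 5 in PMCA mice had under 10 input reads in a group.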
